A study of Rattus norvegicus with 14 samples.

Results

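The interferon-stimulated genes described here are 52 genes that cells switch on in response to interferons, and 44 of them have a row among the 16816 genes of the count table. The other 8 (Herc6, Oas3, Samd9l, Parp10, Parp12, Gbp4, Ifi44l and Xaf1) have no expression values here. All of them except Parp10 enter the promoter search alone. All 44 had at least 1 count, in rat thyroid cells that carry or lack the PAX8-PPARG fusion protein (PPFP), with and without pioglitazone. The members were chosen by name as interferon response genes, with their differences between PPFP cells and EV cells without pioglitazone, and between PPFP cells with and without pioglitazone, already known. Values in those comparisons are therefore a description, and where members past the threshold are counted there, the count describes the choice and supports nothing. Tests are given for 2 comparisons that did not choose the members, PPFP versus EV cells with pioglitazone in both, and pioglitazone in EV cells. Each of these still shares 3 libraries with a comparison that was known. On the log scale the first equals the 2 known differences added, less the response of EV cells. As that response was near 0 (median 0.01), its values were largely set by what was known. Its p-values are therefore not independent support for the choice of members.

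Interferons are secreted proteins that cells make on sensing viral nucleic acids. Type I interferons bind IFNAR, whose JAK kinases start a signal that ends in a complex holding STAT2 and IRF9, which binds interferon-stimulated response elements in promoters. Interferon-gamma acts at gamma-activated sites. The induced genes encode nucleic acid sensors, antiviral enzymes, GTPases, ubiquitin-like modifiers, chemokines and the signaling proteins themselves. In thyroid cells interferons are known for inducing antigen presentation genes and CXCL10 in autoimmune thyroiditis. PPARG, the nuclear receptor that pioglitazone activates, is known for dampening inflammatory genes in other cell types.

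RNA-seq was performed on PCCL3 cells, a differentiated rat thyroid line grown with thyrotropin, in 4 groups of 3 libraries. PPFP cells carry a stable transgene for Myc-tagged human PPFP, and EV cells carry the empty vector. Each line was given 1 μM pioglitazone, a thiazolidinedione, or DMSO vehicle for 16 hours. The comparison of lines asks what PPFP does to expression, and that of treatments what its ligand does. Each genotype is represented by 1 stably transfected line, so the effect of PPFP and any other difference between the lines cannot be told apart. Between 23724703 and 35240176 counts per library were assigned to genes. Levels are given as CPM, counts relative to the library total scaled by TMM factors, and they compare libraries for a gene, not genes with each other, as they are not divided by transcript length. In bulk RNA, fewer cells expressing a gene and less of its RNA per cell cannot be told apart.

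The labels were checked on Pparg, whose counts were 36 to 88 in EV libraries and 1274 to 1848 in PPFP libraries; how many of these came from the human transgene is not known. All 10 thyroid markers had over 10 counts in a library, with a summed level of 10100 to 14500 CPM. Leaving out Slc26a4, which reached the limit on low counts through the PPFP libraries alone, 6 of 9 were lower and 2 higher in PPFP than in EV cells with pioglitazone, with 26.4% of all genes lower and 26.3% higher, and those past 2-fold included Foxe1 (8.03-fold lower), Slc5a5 (6.01-fold lower), Dio1 (2.31-fold lower) and Duox2 (9.69-fold higher). Of 9 leukocyte markers in the table, Cd68 and Cd14 exceeded 10 counts in any library, and Ptprc, the pan-leukocyte gene, had at most 1 count. Their summed level was 5.74 to 6.93 and 5.45 to 6.53 CPM in EV cells without and with pioglitazone, and 4.45 to 6.08 and 5.07 to 5.67 CPM in PPFP cells. Of the 2 leukocyte markers tested, Cd68 was 2.27-fold higher (adjusted p = 0.016) and Cd14 1.36-fold lower (adjusted p = 0.038) in PPFP cells with pioglitazone. The 8 fibroblast and endothelial markers summed to between 21.1 and 35 CPM, most of it Pdgfra, with Dcn and Cdh5 at 0 in every library; Pdgfra was 1.38-fold higher in PPFP cells with pioglitazone (adjusted p = 0.014). The part of these markers in the members' values was not tested.

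The list did not move as a block. Without pioglitazone, 23 of 41 members fitted were past the threshold as higher in PPFP cells and 4 lower (adjusted p under 0.05, edgeR), with 22% of all genes tested called higher and 23.1% lower. This comparison chose the members, so nothing is read from that count. The median log2 fold change of the members was 0.46, with a range of -2 to 4.47. With pioglitazone in both lines, 16 of 41 members were higher in PPFP cells and 12 were lower, against 26.3% of all genes higher and 26.4% lower. Oas2 and Ifit2, both called, and Zbp1 reached the limit on low counts in all 3 libraries of 1 group only; without them 15 of 38 were higher and 11 lower, with a median of 0.07. Of the calls on all 41, 8 members were higher by more than 2-fold and 6 lower, against 9.3% and 10.4% of all genes. The 8 include Ifit2 (2.98) and the 6 include Oas2 (-2.49), so these 2 counts are a description. The median was 0.02, with a range from -3.03 (Oas1a) to 3.82 (Gbp5), and the median over all genes was 0.012.

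With pioglitazone the members lay on both sides of EV cells. Guanylate-binding proteins, Ifit3, Mx proteins, Rsad2 and Usp18 were higher in PPFP cells. Lower were Oas1a, Oas1b and Oasl2 of the Oas family, together with Ifitm3, Bst2, Dhx58, Ifih1, Irf7 and Cxcl10. Leaving out Ifit2 and Oas2, the calls of 18 of 26 members, 9 higher and 9 lower, held in every one of the 14 alternative analyses in which they were fitted, and 0 of the 26 changed sign. Scaling by library size alone moved the median of all genes from 0.01 to -0.12, and the calls from 16 higher and 12 lower to 11 higher and 14 lower; Ddx58, Eif2ak2, Isg20, Nmi and Trim25 were the calls lost.

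**Figure D1:**
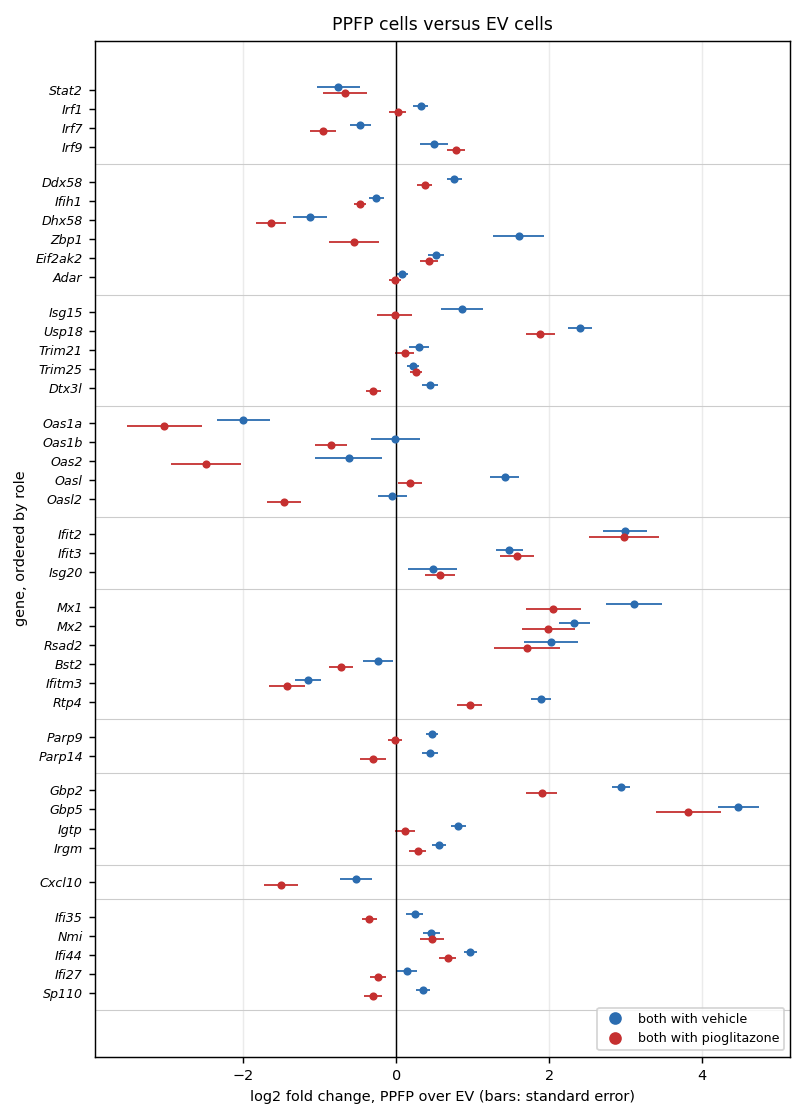
Log2 fold change of PPFP over EV cells for each of the 41 members tested (horizontal axis; genes grouped by role on the vertical axis), with vehicle in blue and pioglitazone in red; bars are standard errors from 3 libraries per group. The members spread from -3.03 to 3.82 with pioglitazone, and the red point lies left of the blue one for most genes.

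The promoters of the members share letters of the response element, whichever way the gene moved. RefSeq promoter windows of the rat GRCr8 assembly, 250 bases before to 50 bases after the gene start, were matched for 39 of the 52 genes, 38 by symbol and 1 by synonym. The letters GAAANNGAAA, the core of the interferon-stimulated response element, were searched on both strands and occurred in 28 of 39 windows (71.8%), compared with 1312 of 33469 windows of all genes (3.92%). They were in 8 of 11 windows of members that were higher in PPFP cells with pioglitazone, 9 of 10 of those lower, and 6 of 10 of those tested but not called. The letters TTCNNNGAA of the gamma-activated site, which read the same on both strands, occurred in 11 of 39 (28.2%) against 8.87% of all windows. The letters AGGNCANAGGNCA, a direct repeat of the kind PPARG and RXR bind, were searched on both strands and occurred in 0 of 39 windows, against 0.415% of all windows. A match is a description of these letters and not evidence of binding. The members are well known interferon targets, and some share promoter sequence as gene copies, such as Oas1a and Oas1b.

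The stretches below are shown because they carry the letters GAAANNGAAA upstream of members from each outcome, 5′ to 3′ on the gene's strand, with those matches alone in capitals; a match on the other strand is printed as its reverse complement. Gbp2, at chr2:234005676-234005725 (+ strand), Gbp5, at chr2:233910923-233910972 (+ strand), Ifit3, at chr1:241527262-241527311 (+ strand), and Rsad2, at chr6:48788238-48788287 (- strand), were higher in PPFP cells with pioglitazone.
Gbp2: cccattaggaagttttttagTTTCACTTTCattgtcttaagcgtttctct
Gbp5: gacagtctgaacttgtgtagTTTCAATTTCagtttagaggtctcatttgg
Ifit3: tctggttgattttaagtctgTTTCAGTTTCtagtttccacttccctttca
Rsad2: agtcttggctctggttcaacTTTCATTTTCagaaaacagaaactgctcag

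Oas1a, at chr12:41330405-41330460 (+ strand), Oas1b, at chr12:41395876-41395931 (- strand), Oasl2, at chr12:47383307-47383356 (- strand), Ifitm3, at chr1:205541773-205541822 (- strand), and Irf7, at chr1:205800063-205800112 (- strand), were lower. In Oas1a and Oas1b the capitals are 2 overlapping matches that share their middle letters.
Oas1a: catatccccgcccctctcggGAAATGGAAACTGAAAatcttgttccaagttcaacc
Oas1b: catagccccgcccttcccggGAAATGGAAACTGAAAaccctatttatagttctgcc
Oasl2: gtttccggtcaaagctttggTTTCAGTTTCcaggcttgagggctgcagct
Ifitm3: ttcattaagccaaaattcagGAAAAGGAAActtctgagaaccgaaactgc
Irf7: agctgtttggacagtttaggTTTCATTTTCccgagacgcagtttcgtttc

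Igtp, at chr10:42874924-42874973 (+ strand), and Irgm, at chr10:33742583-33742632 (- strand), were not called in either direction in that comparison. All coordinates are GRCr8, whereas the reads were aligned to the older rn4 assembly.
Igtp: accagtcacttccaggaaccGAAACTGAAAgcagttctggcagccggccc
Irgm: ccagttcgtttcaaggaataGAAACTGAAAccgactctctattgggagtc

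**Figure D2:**
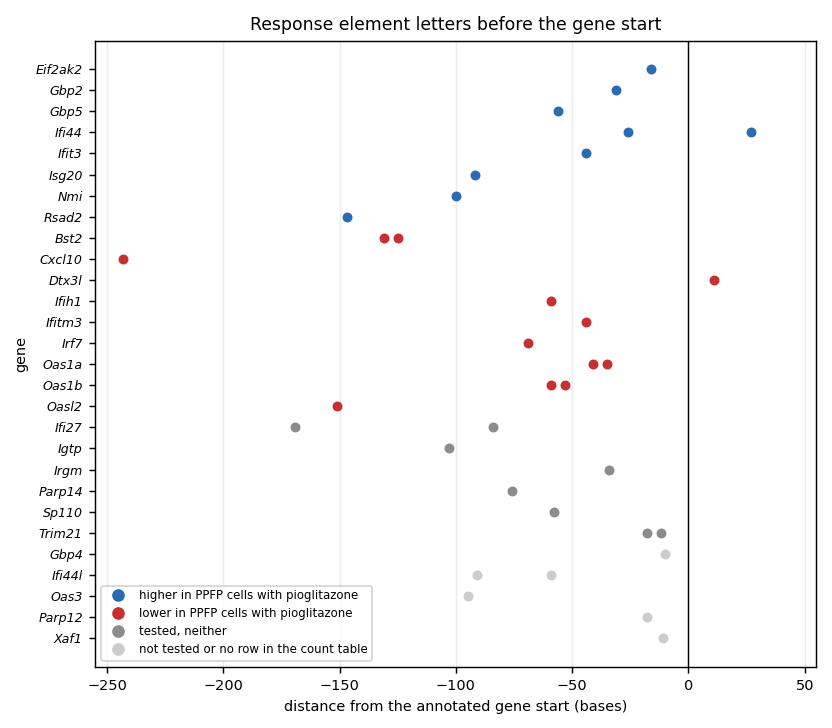
Position of each GAAANNGAAA match (either strand) relative to the annotated gene start, in bases (horizontal axis), for the 28 members with a match, coloured by the call in PPFP versus EV cells with pioglitazone. Most matches lie within 150 bases before the start in members that were higher, lower or not called.

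Of the GTPases, Gbp5 had the highest fold change of the members tested with pioglitazone. Gbp2 and Gbp5 are guanylate-binding proteins, large GTPases that interferon-gamma induces and that attack pathogen vacuoles. Gbp2 was measured at 14.3, 15.3 and 16.1 CPM in EV cells, 14.3, 18 and 15.5 with pioglitazone, 101, 121 and 127 in PPFP cells and 42.4, 65.4 and 68 with pioglitazone. Every PPFP library lay above every EV library, and within PPFP cells the 3 libraries with pioglitazone lay below the 3 without. With pioglitazone Gbp2 was 3.73-fold higher in PPFP than in EV cells (log2 fold change 1.90 ± 0.20 SE, n = 3 per group, edgeR adjusted p = 0.00022), and the value without it was 7.67-fold higher. Gbp5 was measured at 1.18, 0.872 and 1.1 CPM in EV cells, 1.71, 0.675 and 1.15 with pioglitazone, 16, 26.8 and 27.4 in PPFP cells and 9.28, 19.8 and 20.9 with pioglitazone. EV libraries held under 2 CPM, and within each PPFP group replicate 1 was the lowest. The difference with pioglitazone was 14.1-fold higher (3.82 ± 0.43 SE, adjusted p = 0.00033), against 22.2-fold higher without it.

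Igtp and Irgm are immunity-related GTPases, which also act at pathogen vacuoles. Igtp stood at 19.9, 19.7 and 23.8 CPM in EV cells, 18.4, 19.2 and 24 with pioglitazone, 37.5, 36.5 and 37.4 in PPFP cells and 22.2, 21.3 and 22.5 with pioglitazone. Its PPFP libraries with vehicle lay above all others, and those with pioglitazone lay inside the EV range, with a difference from EV cells of 0.11 ± 0.13 SE (adjusted p = 0.48). Irgm stood at 29.1, 26.8 and 29.5 CPM in EV cells, 29.9, 29 and 31.2 with pioglitazone, 45.8, 40.1 and 39.9 in PPFP cells and 41.9, 33.1 and 33 with pioglitazone. The PPFP libraries were above the EV libraries in each condition without overlap, but with pioglitazone the difference of 0.28 ± 0.11 SE did not pass the threshold (adjusted p = 0.071).

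The Ifit proteins bind viral RNA and block its translation, and every PPFP library held more Ifit2 and Ifit3 than every EV library. Ifit2 had 0.371, 0.436 and 0.333 CPM in EV cells, 0.352, 0.353 and 0.279 with pioglitazone, 2.21, 3.4 and 3.6 in PPFP cells and 1.21, 3.65 and 2.9 with pioglitazone. The groups of the 2 lines did not overlap, although replicate 1 was well below the others in the PPFP group with pioglitazone. With pioglitazone the Ifit2 value was 7.88-fold higher in PPFP cells (2.98 ± 0.46 SE), given with no test since 1 EV library was under the limit on low counts. Ifit3 had 2.6, 2.25 and 3.36 CPM in EV cells, 2.52, 1.74 and 2.72 with pioglitazone, 7.54, 7.46 and 7.96 in PPFP cells and 5.87, 7.05 and 7.81 with pioglitazone. All 6 PPFP libraries exceeded all 6 EV libraries, and the PPFP libraries with and without pioglitazone overlapped. Ifit3 was 3-fold higher with pioglitazone (1.58 ± 0.22 SE, adjusted p = 0.00089) and 2.79-fold higher without. Ifit1 had 1 to 8 counts per library and was not tested. Isg20, an RNA exonuclease, was at 2.73 to 6.81 CPM, and its call as higher with pioglitazone (0.57 ± 0.20 SE, adjusted p = 0.048) held in 4 of 14 alternatives.

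Mx1 and Mx2, dynamin-like GTPases that trap viral nucleocapsids, and Rsad2 (viperin), an enzyme that makes a chain-terminating nucleotide, were higher in PPFP cells. Mx1 was found at 1.15, 0.906 and 0.333 CPM in EV cells, 1.25, 0.514 and 1.12 with pioglitazone, 5.81, 6.98 and 7.88 in PPFP cells and 2.76, 4.36 and 4.77 with pioglitazone, Mx2 at 2.4, 1.68 and 1.53 CPM in EV cells, 2.17, 1.03 and 3.04 with pioglitazone, 9.6, 8.73 and 9.81 in PPFP cells and 7.91, 9.17 and 7.48 with pioglitazone. Both genes separated the lines in every library. With pioglitazone Mx1 was 4.15-fold higher (2.05 ± 0.36 SE, adjusted p = 0.0026) and Mx2 was 3.98-fold higher (1.99 ± 0.35 SE, adjusted p = 0.0025) in PPFP cells. Rsad2 was found at 1.49, 1.91 and 0.833 CPM in EV cells, 1.76, 2.6 and 0.908 with pioglitazone, 3.79, 6.57 and 6.85 in PPFP cells and 3.18, 6.9 and 6.98 with pioglitazone. Replicate 1 was the lowest PPFP library in each condition, still above the EV libraries. Rsad2 was 3.27-fold higher (1.71 ± 0.43 SE, adjusted p = 0.013); without replicate 1 of EV cells with pioglitazone the adjusted p was 0.052.

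Rtp4, a receptor transport protein with antiviral activity, was intermediate, with 7.87, 6.11 and 7.06 CPM in EV cells, 7.05, 6.36 and 8.35 with pioglitazone, 24.3, 27.3 and 26.2 in PPFP cells and 12, 14.7 and 15.1 with pioglitazone. Its PPFP libraries lay above all EV libraries, and pioglitazone-treated ones lay below vehicle-treated ones. The difference between lines was 1.94-fold higher with pioglitazone (0.96 ± 0.16 SE, adjusted p = 0.0022) and 3.7-fold higher without.

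The membrane proteins Ifitm3, which blocks viral fusion in endosomes, and Bst2 (tetherin), which holds budding virions at the cell surface, went the other way. Ifitm3 was counted at 314, 195 and 306 CPM in EV cells, 272, 156 and 306 with pioglitazone, 120, 121 and 127 in PPFP cells and 87.1, 95.4 and 88.4 with pioglitazone. All PPFP libraries lay below all EV libraries, in which replicate 2 was the lowest of each EV group. Ifitm3 was 2.69-fold lower in PPFP cells with pioglitazone (-1.43 ± 0.24 SE, adjusted p = 0.002) and 2.22-fold lower without. Bst2 was counted at 107, 87.5 and 153 CPM in EV cells, 109, 94.4 and 140 with pioglitazone, 110, 90.5 and 93 in PPFP cells and 78, 64.9 and 65 with pioglitazone. Its vehicle groups overlapped, while with pioglitazone the PPFP libraries lay below the EV libraries (1.64-fold lower, log2 -0.72 ± 0.16 SE, adjusted p = 0.0078).

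In the ISG15 system, Usp18 and Isg15 differed. Usp18, the protease that removes ISG15 from proteins and restrains signaling at IFNAR, had 4.8, 3.22 and 3.83 CPM in EV cells, 3.88, 3.02 and 4.79 with pioglitazone, 21.7, 20.6 and 20.1 in PPFP cells and 14.1, 14.6 and 13.9 with pioglitazone. The PPFP libraries were tightly grouped in each condition and far above the EV libraries, and pioglitazone-treated ones lay below vehicle-treated ones. Usp18 was 3.68-fold higher with pioglitazone (1.88 ± 0.19 SE, adjusted p = 0.00017) and 5.26-fold higher without. Isg15, the ubiquitin-like modifier itself, had 15.5, 8.22 and 17.3 CPM in EV cells, 12.6, 8.74 and 16.6 with pioglitazone, 29.4, 21.4 and 23.6 in PPFP cells and 13.6, 11.9 and 11.5 with pioglitazone. With vehicle the PPFP libraries exceeded the EV libraries (1.81-fold higher), whereas with pioglitazone they fell inside the EV range (-0.02 ± 0.23 SE, adjusted p = 0.95).

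The ubiquitin ligases of the list had small differences. Trim21, a cytosolic antibody receptor, was at 12.3, 11 and 12.5 CPM in EV cells, 10.6, 10.8 and 12.3 with pioglitazone, 16.8, 13 and 14.3 in PPFP cells and 12.7, 12.3 and 11.1 with pioglitazone. With pioglitazone the lines overlapped (0.11 ± 0.12 SE, adjusted p = 0.46). Trim25, which modifies the RNA sensor RIG-I, was at 105, 112 and 97 CPM in EV cells, 110, 121 and 102 with pioglitazone, 122, 125 and 118 in PPFP cells and 138, 128 and 129 with pioglitazone. Its PPFP libraries with pioglitazone were above the EV ones, by 0.26 ± 0.08 SE (adjusted p = 0.027), a call that held in 6 of 14 alternatives. Dtx3l, the partner of Parp9, was at 48.8, 44.6 and 45.9 CPM in EV cells, 51.5, 47 and 45 with pioglitazone, 56.4, 68.8 and 64.2 in PPFP cells and 34.2, 41.4 and 40 with pioglitazone. It was above EV cells with vehicle (0.44 ± 0.10 SE) and below them with pioglitazone (-0.30 ± 0.10 SE, adjusted p = 0.048), the latter held in 9 of 14 alternatives.

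The Oas family, enzymes that make oligoadenylates to activate RNase L, had 3 of 4 members lower in PPFP cells with pioglitazone and 0 higher, leaving out Oas2, with 26.4% and 26.3% of all genes; their median log2 fold change was -1.16. Reads shared by near-identical copies such as Oas1a, Oas1b and Oas1k may have been lost or split in counting, so their single values are uncertain. Oas1a was present at 5.44, 2.38 and 4.8 CPM in EV cells, 4.15, 1.77 and 5.38 with pioglitazone, 1.14, 0.821 and 1.2 in PPFP cells and 0.379, 0.373 and 0.601 with pioglitazone. PPFP libraries lay below all EV libraries, with the lowest values under pioglitazone, where the counts were 10, 10 and 18. The difference was 8.14-fold lower with pioglitazone (-3.03 ± 0.49 SE, adjusted p = 0.0017) and 3.99-fold lower without. Oas2 was present at 0.675, 0.47 and 0.366 CPM in EV cells, 0.813, 0.514 and 0.559 with pioglitazone, 0.221, 0.261 and 0.514 in PPFP cells and 0.0757, 0.186 and 0.0668 with pioglitazone. The counts were low, 2, 5 and 2 in PPFP cells with pioglitazone against 30, 16 and 16 in EV cells with it. Oas2 reached the limit on low counts through the EV libraries alone, so its difference (-2.49 ± 0.46 SE) is given with no test. Oas1b ranged from 1.33 to 3.48 CPM and was lower with pioglitazone (-0.85 ± 0.21 SE, adjusted p = 0.012). Oas1k had 0 to 2 counts and was not tested.

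Oasl and Oasl2 are members of the same family that modulate RNA sensing. Oasl2 was present at 12.4, 9.23 and 15.5 CPM in EV cells, 12.2, 9.03 and 15 with pioglitazone, 12, 12.5 and 11.3 in PPFP cells and 4.01, 4.77 and 4.11 with pioglitazone. The PPFP libraries with vehicle lay among the EV libraries, and those with pioglitazone lay below every other library. Oasl2 was 2.78-fold lower in PPFP cells with pioglitazone (-1.47 ± 0.22 SE, adjusted p = 0.0011), with a vehicle value of -0.05 ± 0.19 SE. Oasl was present at 8.38, 5.1 and 7.4 CPM in EV cells, 6.91, 5.98 and 8.1 with pioglitazone, 20.6, 18.1 and 16.9 in PPFP cells and 7.8, 8.2 and 7.48 with pioglitazone. Here the PPFP libraries with vehicle stood apart above all others (2.67-fold higher), and those with pioglitazone overlapped the EV libraries (0.18 ± 0.16 SE, adjusted p = 0.37).

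**Figure D3:**
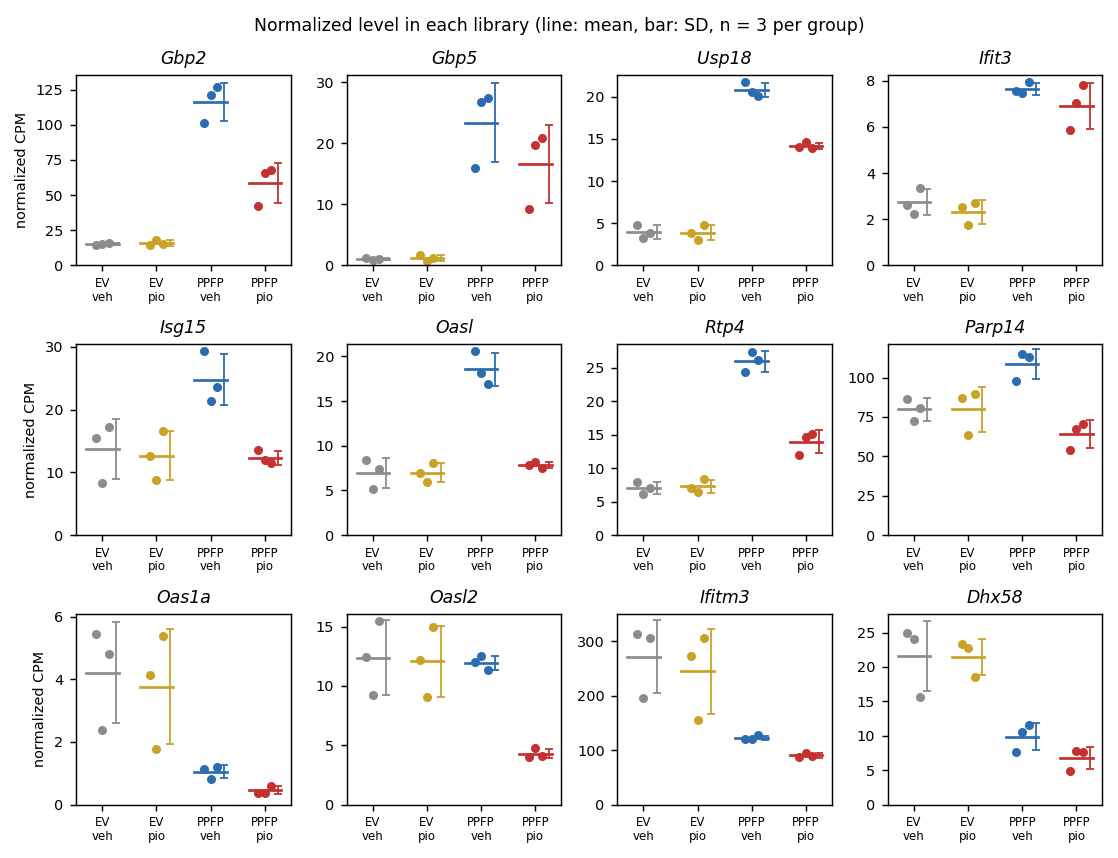
Normalized CPM (vertical axes, from 0) of 12 members in each of the 12 libraries, by group: EV and PPFP cells with vehicle (veh) or pioglitazone (pio); dots are libraries, lines means and bars SD (n = 3). Gbp2, Gbp5, Usp18, Ifit3 and Rtp4 stay above EV cells with pioglitazone, Isg15 and Oasl lie at EV levels, and Oas1a, Oasl2, Ifitm3 and Dhx58 lie below.

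Among the nucleic acid sensors, the 3 RIG-I-like receptors differed from each other. Ddx58 (RIG-I), a sensor of viral RNA ends, was read at 70.7, 58 and 63.9 CPM in EV cells, 68.2, 56.6 and 68.8 with pioglitazone, 116, 107 and 103 in PPFP cells and 85.2, 80 and 82.5 with pioglitazone. PPFP libraries lay above EV libraries in each condition, by 1.29-fold higher with pioglitazone (0.37 ± 0.10 SE, adjusted p = 0.017), a call lost without replicate 2 or 3 of PPFP cells with pioglitazone. Dhx58 (LGP2), a regulator of the other RIG-I-like receptors that lacks their signaling domain, was read at 24.9, 24.1 and 15.7 CPM in EV cells, 23.3, 22.7 and 18.5 with pioglitazone, 7.65, 10.5 and 11.5 in PPFP cells and 4.88, 7.83 and 7.64 with pioglitazone. All PPFP libraries lay below all EV libraries, and Dhx58 was 3.13-fold lower with pioglitazone (-1.64 ± 0.20 SE, adjusted p = 0.00049) and 2.18-fold lower without. Ifih1 (MDA5), a sensor of long double-stranded RNA, was read at 31.3, 32.8 and 29.8 CPM in EV cells, 31, 34.3 and 34.3 with pioglitazone, 28.5, 24.8 and 25 in PPFP cells and 24.3, 22.8 and 23.9 with pioglitazone. It too was lower in PPFP cells with pioglitazone, by a smaller margin (1.39-fold lower, log2 -0.47 ± 0.08 SE, adjusted p = 0.0028).

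Eif2ak2 (PKR), the kinase that stops translation on double-stranded RNA, was at 40.8, 32.9 and 40.6 CPM in EV cells, 38.8, 33.1 and 41.6 with pioglitazone, 58.1, 53.7 and 51.9 in PPFP cells and 56.3, 47.9 and 47.3 with pioglitazone. It was higher in PPFP cells with pioglitazone (0.43 ± 0.12 SE, adjusted p = 0.019), a call held in 10 of 14 alternatives. Adar, which edits double-stranded RNA, was at 73.1, 71.2 and 64.8 CPM in EV cells, 75.5, 70.1 and 72.6 with pioglitazone, 73.6, 74.3 and 72.7 in PPFP cells and 65.8, 72.1 and 74.9 with pioglitazone. Its groups overlapped in both comparisons of lines (-0.02 ± 0.08 SE with pioglitazone, adjusted p = 0.86). Zbp1, a sensor of Z-form nucleic acid, was low, at 8 to 49 counts per library, and its difference with pioglitazone (-0.55 ± 0.33 SE) is given with no test since 1 PPFP library was under the limit on low counts.

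The signal transducers were mixed. Stat2 and Irf9 are parts of the complex that binds response elements. Stat2 was at 166, 260 and 113 CPM in EV cells, 173, 241 and 119 with pioglitazone, 85.5, 122 and 111 in PPFP cells and 75, 126 and 130 with pioglitazone. EV libraries varied by more than 2-fold within a group, with replicate 2 the highest, and the lines overlapped with pioglitazone (-0.67 ± 0.29 SE, adjusted p = 0.092). Irf9 was at 17.1, 17.5 and 12.5 CPM in EV cells, 18.2, 20.6 and 16.5 with pioglitazone, 17.7, 25.7 and 22.8 in PPFP cells and 27.6, 33.5 and 32.5 with pioglitazone. In PPFP cells its libraries with pioglitazone lay above those with vehicle (0.51 ± 0.15 SE), as did those of Trim25 among the members tested. With pioglitazone it was 1.71-fold higher than in EV cells (0.78 ± 0.12 SE, adjusted p = 0.0014).

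Irf7 amplifies type I interferon production and was at 38.9, 34.5 and 27.3 CPM in EV cells, 36.8, 34 and 29.4 with pioglitazone, 23.4, 25.9 and 23.6 in PPFP cells and 13, 19.8 and 18 with pioglitazone. All PPFP libraries lay below all EV libraries, by 1.95-fold lower with pioglitazone (-0.96 ± 0.17 SE, adjusted p = 0.0027). Irf1, a transcription factor that interferon-gamma induces, was at 76.1, 62.2 and 75.8 CPM in EV cells, 68.6, 61.1 and 77.2 with pioglitazone, 96, 85 and 86.9 in PPFP cells and 72.5, 67.9 and 67.1 with pioglitazone. With pioglitazone the lines overlapped (0.02 ± 0.11 SE, adjusted p = 0.9).

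Parp9 and Parp14 are macrodomain proteins of the ADP-ribosyltransferase family. Parp9 was at 61.3, 54.7 and 54.8 CPM in EV cells, 57.9, 52.2 and 57.4 with pioglitazone, 78.1, 81.2 and 77.2 in PPFP cells and 51.1, 55.2 and 57 with pioglitazone, Parp14 at 86.6, 72.1 and 80.5 CPM in EV cells, 87, 63.5 and 89.3 with pioglitazone, 97.5, 115 and 113 in PPFP cells and 54.3, 67.5 and 70.6 with pioglitazone. Both were above EV cells with vehicle (0.47 ± 0.08 and 0.44 ± 0.10 SE) and overlapped EV cells with pioglitazone (-0.02 ± 0.09 SE, adjusted p = 0.87, and -0.30 ± 0.17 SE, adjusted p = 0.17).

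Cxcl10, the chemokine that draws T cells through CXCR3, was at 5.5, 7.21 and 5.06 CPM in EV cells, 6.18, 7.84 and 4.61 with pioglitazone, 4.97, 3.51 and 3.81 in PPFP cells and 2.27, 2.2 and 2 with pioglitazone. PPFP libraries lay below EV libraries in each condition, and Cxcl10 was 2.84-fold lower with pioglitazone (-1.51 ± 0.22 SE, adjusted p = 0.001) and 1.45-fold lower without. Cxcl11, a ligand of the same receptor, had 0 to 6 counts per library and was not tested.

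Of the remaining proteins, Ifi44, whose role is less well known, was higher in PPFP cells, and Ifi35 was lower in them with pioglitazone. Ifi44 was at 29, 26.8 and 30.2 CPM in EV cells, 28.9, 26.4 and 32.6 with pioglitazone, 58.4, 51.7 and 58 in PPFP cells and 51.1, 44.9 and 42.7 with pioglitazone. The lines did not overlap, and the difference with pioglitazone was 1.59-fold higher (0.67 ± 0.11 SE, adjusted p = 0.0022). Ifi35 was at 43.4, 38.4 and 48.4 CPM in EV cells, 39.5, 39.8 and 45.2 with pioglitazone, 48.1, 50.8 and 54.2 in PPFP cells and 29.9, 32.7 and 34 with pioglitazone. Its PPFP libraries with pioglitazone lay below all others (-0.35 ± 0.10 SE, adjusted p = 0.021), a call lost without replicate 1 or 2 of that group (adjusted p up to 0.056). Nmi, the binding partner of Ifi35, was at 17.3, 15.2 and 16.9 CPM in EV cells, 15.9, 15.1 and 17.9 with pioglitazone, 20.4, 22.9 and 24.3 in PPFP cells and 17.8, 24.1 and 24.9 with pioglitazone. It was called higher with pioglitazone (0.47 ± 0.16 SE, adjusted p = 0.041), although replicate 1 of the PPFP libraries lay within the EV range, and the call held in 8 of 14 alternatives.

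Ifi27, a small mitochondrial and nuclear envelope protein, was at 165, 124 and 119 CPM in EV cells, 164, 137 and 132 with pioglitazone, 141, 150 and 158 in PPFP cells and 113, 127 and 122 with pioglitazone. Sp110, a nuclear body protein, was at 39.2, 32.8 and 35.6 CPM in EV cells, 35.7, 32.8 and 37.6 with pioglitazone, 44.9, 45.9 and 46.2 in PPFP cells and 24.1, 30.7 and 30.3 with pioglitazone. For both, the PPFP libraries with pioglitazone lay below the EV libraries with pioglitazone, but the differences (-0.24 ± 0.10 SE, adjusted p = 0.087, and -0.30 ± 0.12 SE, adjusted p = 0.077) did not pass the threshold.

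**Figure D4:**
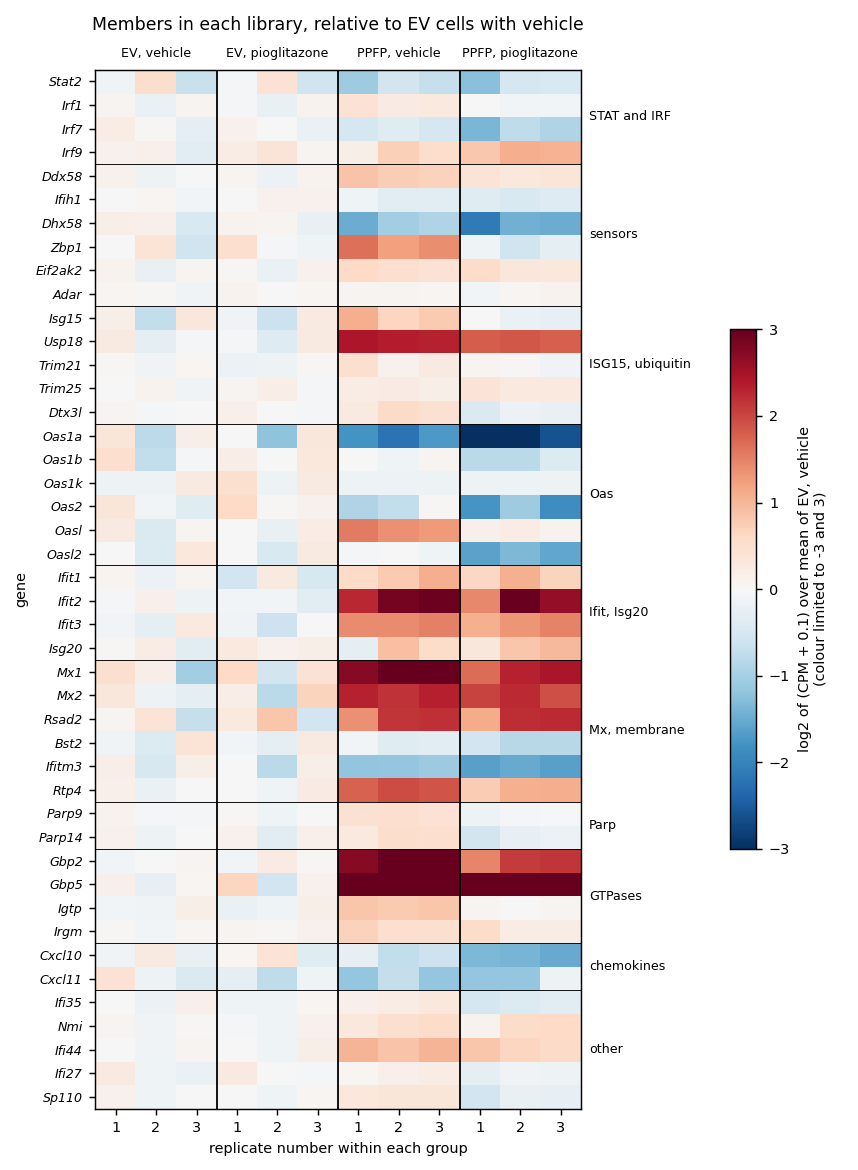
Level of each of the 44 members (rows, grouped by role) in each of the 12 libraries (columns), as log2 of CPM plus 0.1 relative to the mean of EV cells with vehicle, with colour limited to -3 and 3. EV cells with pioglitazone are close to EV cells with vehicle, whereas PPFP cells hold both red and blue rows.

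In EV cells no member passed the test for a response to pioglitazone. The members' log2 fold changes ran from -0.24 to 0.33 with a median of 0.01, and their standard errors from 0.07 to 0.5. With edgeR, 0 of 41 members and 0% of all genes were called higher, and 0 members and 0% of genes lower. At an unadjusted p under 0.05 there were 0 members and 16 of 10146 genes. This test did not pair same-numbered libraries. Its spread between libraries (biological coefficient of variation) was 0.156, against 0.0372 with the replicate number as a block. Its standard errors are therefore wide, and the lack of calls does not show that there was no response. DESeq2 and edgeR's exact test also called 0 members. With the replicate number as a block, 0 members were called, with 1 of 10146 genes called higher and 0 lower. With this block 4 of 41 members had an unadjusted p under 0.05, a share not computed over all genes. For all 41 the libraries with and without pioglitazone overlapped, which was not counted over all genes. Gbp2, for example, differed by 0.06 ± 0.12 SE, Usp18 by -0.02 ± 0.23 SE, Oasl2 by -0.04 ± 0.25 SE and Ifitm3 by -0.15 ± 0.29 SE.

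In PPFP cells the same treatment went with lower levels of most members, in the comparison that chose them. Of 40 members fitted, 0 were called higher and 20 lower, with 7.63% of all genes called higher and 7.13% lower, a count that describes the choice of members. The median log2 fold change was -0.48 and the range -1.97 to 0.51. Same-numbered libraries of a line deviated together, and with the replicate number as a block 28 members were lower and 3 (Irf9, Isg20 and Trim25) higher, with 23.9% and 27.7% of all genes. Without replicate 3 of PPFP cells with vehicle 11 were lower. The median ratio of pioglitazone to vehicle was -0.62, -0.42 and -0.44 (log2) in the 3 pairs of PPFP libraries and -0.04, -0.02 and 0.08 in those of EV libraries. In all 3 pairs 32 of 42 members were lower in PPFP cells, and 4 of 43 in EV cells. The share over all genes was not computed for these pairs. The PPFP count describes the choice of members, so nothing is read from the contrast with EV cells.

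The size of this difference varied between members. It was -1.46 ± 0.11 SE for Oasl2, -1.23 ± 0.10 SE for Oasl, -0.99 ± 0.13 SE for Isg15 and -0.98 ± 0.20 SE for Gbp2. For Rtp4 it was -0.89 ± 0.11 SE, for Igtp -0.74 ± 0.06 SE and for Usp18 -0.54 ± 0.07 SE. Values near 0 were found for Ifit3 (-0.13 ± 0.13 SE), Mx2 (-0.18 ± 0.12 SE), Rsad2 (0.01 ± 0.36 SE) and Nmi (-0.01 ± 0.15 SE). Among the genes that were high in PPFP cells, Gbp2, Rtp4 and Oasl had all libraries with pioglitazone below those with vehicle, whereas the groups overlapped for Ifit3, Mx2 and Rsad2.

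The difference between the responses of the lines, an interaction term over all 12 libraries, includes the PPFP response and is given as a description. Of 41 members 0 had a higher and 10 a lower term past the threshold, with 1.38% and 1.26% of all genes. With replicates as a block within each line, 1 member (Irf9) was higher and 29 were lower, with 17.2% and 17.1% of all genes. Without the block, leaving out replicate 2 or 3 of PPFP cells with vehicle left 0 members past the threshold, and other libraries left 1 to 9.

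**Figure D5:**
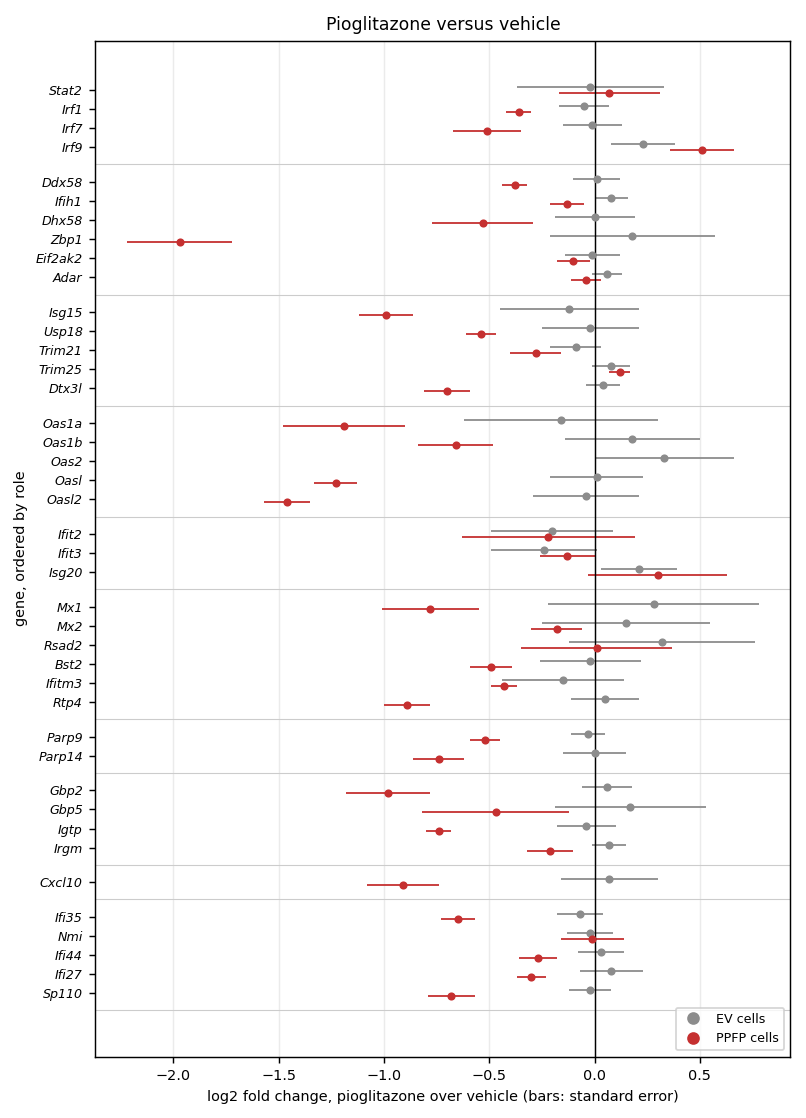
Log2 fold change of pioglitazone over vehicle (horizontal axis) for each member by role, in EV cells (grey) and PPFP cells (red); bars are standard errors from 3 libraries per group. Grey points lie between -0.24 and 0.33, and red points extend to -1.97.

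Genes upstream of the members were read from other lists. Of 6 interferon genes in the table none reached the testing limit. Ifna1, Ifna2, Ifna4 and Ifng had 0 counts in every library. Ifnb1, the main interferon of non-immune cells, had 0, 1 and 0 counts in EV cells, 1, 1 and 0 with pioglitazone, 5, 5 and 7 in PPFP cells and 2, 2 and 11 with pioglitazone. These counts are too few for a test, but each PPFP library held more than each EV library.

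Of 8 receptor subunits and JAK kinases, 5 were lower in PPFP cells with pioglitazone and 1 higher, with 26.4% and 26.3% of all genes. Ifnar1, the type I receptor subunit, was 1.53-fold lower (-0.61 ± 0.07 SE, adjusted p = 0.00025), Jak2 1.95-fold lower (adjusted p = 0.001) and Ifngr2 1.34-fold higher (adjusted p = 0.0042). None of these differences exceeded 2-fold. Of 10 negative regulators of JAK-STAT signaling 3 were higher and 3 lower, a share near that of all genes. Past 2-fold were Cish and Socs3, cytokine-inducible inhibitors, at 3.93-fold lower (adjusted p = 8e-05) and 2.15-fold lower (adjusted p = 0.0037), and the phosphatase Ptpn6 at 2.5-fold higher (adjusted p = 5.7e-05).

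Of 10 tested sensing adaptors, 3 were higher and 2 lower with pioglitazone, also near the shares of all genes (26.3% and 26.4%). Irf8, a transcription factor best known from myeloid cells, was 4.36-fold higher in PPFP cells (2.13 ± 0.17 SE, adjusted p = 7.1e-05). It had 230, 154 and 164 CPM in EV cells, 271, 172 and 188 with pioglitazone, 557, 505 and 485 in PPFP cells and 918, 914 and 894 with pioglitazone. Within PPFP cells the value was 1.78-fold higher with pioglitazone, given as a description. Tmem173 (STING), the adaptor for cytosolic DNA, was 2.89-fold lower (adjusted p = 0.0014), and the kinase Ikbke was 2.77-fold lower (adjusted p = 0.0047).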

How the data were processed

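RNA-seq was analysed in 12 libraries of PCCL3 cells, 3 for each of EV and PPFP cells with vehicle or pioglitazone, from 3 independent experiments. The deposited values are unnormalized integer counts per gene symbol, which the authors made by aligning paired reads to rn4 with TopHat2 2.0.11 and counting with HTSeq 0.6.1p1 in its intersection-strict mode; reads that map to several copies of a gene can be missing from such counts. Peak lists of the PPFP ChIP were not used here, since gene positions in rn4 were not at hand.

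For the tests here, edgeR 4.0.16 was run in R 4.3.3 with limma 3.58.1, and DESeq2 1.42.0 was an alternative. Each comparison of 2 groups used the filterByExpr limits on low counts, TMM scaling (factors 0.925 to 1.05) and edgeR's quasi-likelihood test, adjusted by Benjamini-Hochberg over all genes tested. The SE of a log2 fold change comes from it and the F statistic. A gene was called at an adjusted p under 0.05. Figures and promoter windows were handled in Python 3.11.15 with pandas 2.3.3, numpy 2.4.6 and matplotlib 3.10.9. The method was tested on simulated data.

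The members and gene lists were chosen with earlier results of these data known. Values in every library are printed for members with a mean of at least 10 CPM, and for those called with a fold above 2 in PPFP versus EV cells with pioglitazone (38 members); of other lists, genes called with a fold above 2 in that comparison are named. Other genes were named after their values were seen. Same-numbered libraries of a line deviated together (correlations 0.743, 0.464 and 0.432 in PPFP cells, 0.53, 0.729 and 0.774 in EV cells). The main tests did not use this pairing, so their SEs and p-values are unpaired. It entered only the replicate block and the ratios of pioglitazone to vehicle by replicate number. Alternatives were DESeq2, edgeR's exact test, other scalings and filters, a replicate block, a joint fit of 12 libraries, and each library left out in turn. The p-values measure the spread between these cultures of 1 line per genotype.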

Additional observations from a re-analysis of the deposited data

Results flagged for a closer look

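The response to pioglitazone differed between PPFP and EV cells for 10 members, by the interaction term (PPFP response minus EV response, log2) at an adjusted p under 0.05. Since the members were chosen with the PPFP response known, these values are given as a description. The term was -2.17 ± 0.47 SE for Zbp1, -1.44 ± 0.29 SE for Oasl2, -1.25 ± 0.25 SE for Oasl, -1.06 ± 0.23 SE for Gbp2 and -0.94 ± 0.19 SE for Rtp4. It was -0.76 ± 0.14 SE for Dtx3l, -0.71 ± 0.15 SE for Igtp, -0.67 ± 0.14 SE for Sp110, -0.60 ± 0.14 SE for Ifi35 and -0.51 ± 0.10 SE for Parp9. In each the PPFP libraries with pioglitazone lay below those with vehicle, and the EV groups overlapped. Zbp1 rested on 8 to 49 counts per library. With the replicate block all 10 were again past the threshold, among 29.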

How the results depend on the processing

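For single members, 1057 of 1225 values of called members under an alternative kept direction and call, 168 kept direction only, and 0 reversed. These values pool every comparison, including those known when the members were chosen, and they include Ifit2 and Oas2. They describe the processing and do not support the choice of members. With pioglitazone in both lines, 8 of 26 calls (without Ifit2 and Oas2) were lost in at least 1 of 14 alternatives, and 5 of 13 members not called were called in at least 1. Of all 28 calls, with Ifit2 and Oas2 included, leaving out EV with pioglitazone replicate 1, 2 or 3 lost 6, 3 and 2. Leaving out PPFP with pioglitazone replicate 1, 2 or 3 lost 4, 6 and 5 of them. The median there was 0.017, and leaving out 1 library gave -0.054 to 0.17, the latter without EV with pioglitazone replicate 3. Without pioglitazone, 4 members were lower, and 7 with DESeq2 and 7 with scaling by library size alone. For pioglitazone in PPFP cells 0 were higher, against 1 with DESeq2, 1 with the exact test and 3 with the replicate block, and the 20 lower became 11 to 20 with 1 library left out. For the difference in response, the replicate block gave 1 higher and 29 lower instead of 0 and 10. Leaving out 1 library gave 0 to 9 lower, with 0 without PPFP with vehicle replicate 2 or 3 and 1 without PPFP with pioglitazone replicate 2. Every other library left out gave 6 or fewer, except EV with pioglitazone replicate 2 (9). Fewer samples were fitted there. Between the lines same-numbered libraries did not deviate together (correlations -0.378 to 0.316). There the block gave 23 higher and 5 lower without pioglitazone and 13 higher and 11 lower with it. In the other comparisons and medians no alternative moved a value past its spread. Depth limits Oas1k, Ifit1 and Cxcl11, which had at most 8 counts.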
